A study of Glycine max with 6 samples.

Results

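Chalcone synthase, which joins a coumaroyl-CoA starter to malonyl-CoA units to build the first chalcone of the flavonoid pathway, was represented on the Affymetrix Soybean GeneChip by 12 probe sets that carry a single gene symbol, 7 of them annotated CHS1 and 5 annotated CHS8. They were taken from 37641 soybean probe sets by the symbol in the annotation of the array, and no other probe set of the array carried a chalcone synthase symbol. Seed coats of 2 nearly isogenic lines of the variety Clark were compared, black (iRT) and brown (irT), with 3 plants of each and 1 array per plant. Both lines carry the alleles i and T and differ by R or r at the R locus, so every seed coat compared here was pigmented. Plants were raised under 16 h of light, moved to soil after 12 days and changed to 12 h of light 34 days later. Seed coats were taken from seeds of 300 to 400 mg fresh weight, and plants received no treatment. The lines are nearly isogenic, so they may differ at other loci too, and each group is 3 plants of 1 line. The rule for choosing the probe sets used only the symbols, and not their signals.

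Soybean has a large family of chalcone synthase genes, and flavonoids that leave this step become anthocyanins, proanthocyanidins, flavonols or isoflavones. The dominant alleles of the I locus, which lies in a cluster of these genes, prevent seed coat pigmentation through silencing of chalcone synthase by small RNAs, whereas the recessive i allele carried by both lines does not. The R locus decides between black and brown coats in this background. In the RefSeq annotation of the Glycine_max_v4.0 assembly, 17 genes bear a CHS symbol and 16 of them are protein coding. Of the 17, 9 lie on chromosome 8, where CHS5, CHS3, CHS1 and CHS9 follow each other as direct neighbours, and CHS3C, the pseudogene CHS12, CHS4B, CHS4A and CHS3B lie further along. CHS8 lies on chromosome 11. The deposited values name no genome build, so positions are given only as the order of genes.

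The symbols do not say which family member each probe set detects. Of the 7 probe sets annotated CHS1, the study itself assigned Gma.17605.1.S1_at to CHS1, GmaAffx.92491.1.S1_s_at to CHS9, and the pair GmaAffx.42116.1.S1_at and GmaAffx.42116.1.S1_x_at to CHS4/CHS5, and these names are used below. A suffix _s_at marks a probe set whose probes are shared by several transcripts, and _x_at marks one whose probes may bind unrelated or related sequences. Array probes were not at hand as sequences, but the study designed separate PCR primers for CHS4 and CHS5 to resolve the single probe set, and a joint pair for CHS7 and CHS8. They are shown, each from 5′ to 3′, because they are the only sequences used here that name these family members apart. The capitals mark the longest stretch that the forward primers of CHS4 and CHS5 have in common, which is 8 bases long.
CHS4F: ccttccaagcCACTTTGCa
CHS4R: ctggagcaaaggatgaaagtga
CHS5F: CACTTTGCcacattcattcc
CHS5R: tgtgaatgaactaatgaagctatagc
CHS78F: taggcaagacatggtggtgg
CHS78R: ctttgactttggctggccc
The shared stretch is at the start of CHS5F, whereas in CHS4F it is followed by only a single further base. The primers are 19 to 26 bases long. The joint CHS7/CHS8 pair has no separate version for either gene. Whether the CHS8 probe sets of the array also detect CHS7 was not tested, and primers for PCR cannot show it.

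Values are signals on the log2 scale after RMA normalization, given per plant or as mean ± SD of 3 plants. Differences of single probe sets are black minus brown with the SE of the limma fit, and their p-values were adjusted by the Benjamini-Hochberg method over all 37641 soybean probe sets. For sums and for contrasts within plants, the SE comes instead from the variances among the 3 plants of each genotype. Probe sets with an adjusted p under 0.05 were called upregulated or downregulated in the black (iRT) seed coat. The signals of 23394 probe sets for soybean pathogens gave the background level, which is their 95th percentile on each array and lay between 3.54 and 3.78. Probes differ in how brightly they report a transcript, so a higher signal in one probe set than in another does not show more transcript, and sums, shares and contrasts over several probe sets are compared only between genotypes. In these bulk samples, fewer cells of a type and less RNA per cell cannot be told apart.

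Of the 12 probe sets, 2 were upregulated, 2 were downregulated and 8 did not pass. All 4 that passed were annotated CHS1, and none of the 5 annotated CHS8 passed. Over all soybean probe sets, 0.0664% were upregulated and 0.0425% were downregulated. Signals of black plants were clear of those of brown plants in 7 of the 12 members, higher in 3 and lower in 4, where over all soybean probe sets the same held for 14.0%, 5.74% with black higher and 8.30% with black lower. With the SAM statistic at the thresholds of the methods, a fold change above 2 or below 0.5 and an unadjusted p under 0.01, the same counts of 2 and 2 were found, beside 0.210% of all soybean probe sets upregulated and 0.141% downregulated. After Benjamini-Hochberg adjustment SAM called 0 members and 0 soybean probe sets, with the same 4 differences (-5.15, -4.42, 3.46 and 3.01) each at an adjusted p of 0.1. That is the lowest value this adjustment can give here, because the observed assignment of plants and its mirror are among the 20 permuted ones. The absence of calls was therefore fixed in advance and says nothing about the members. The median difference was 0.25 for the 7 CHS1 probe sets and -0.03 for the 5 CHS8 probe sets, beside -0.02 for all soybean probe sets. The CHS1 median is the value of GmaAffx.82413.1.S1_at, which lay below background in every plant, so it does not show a rise of CHS1.

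**Figure D1:**
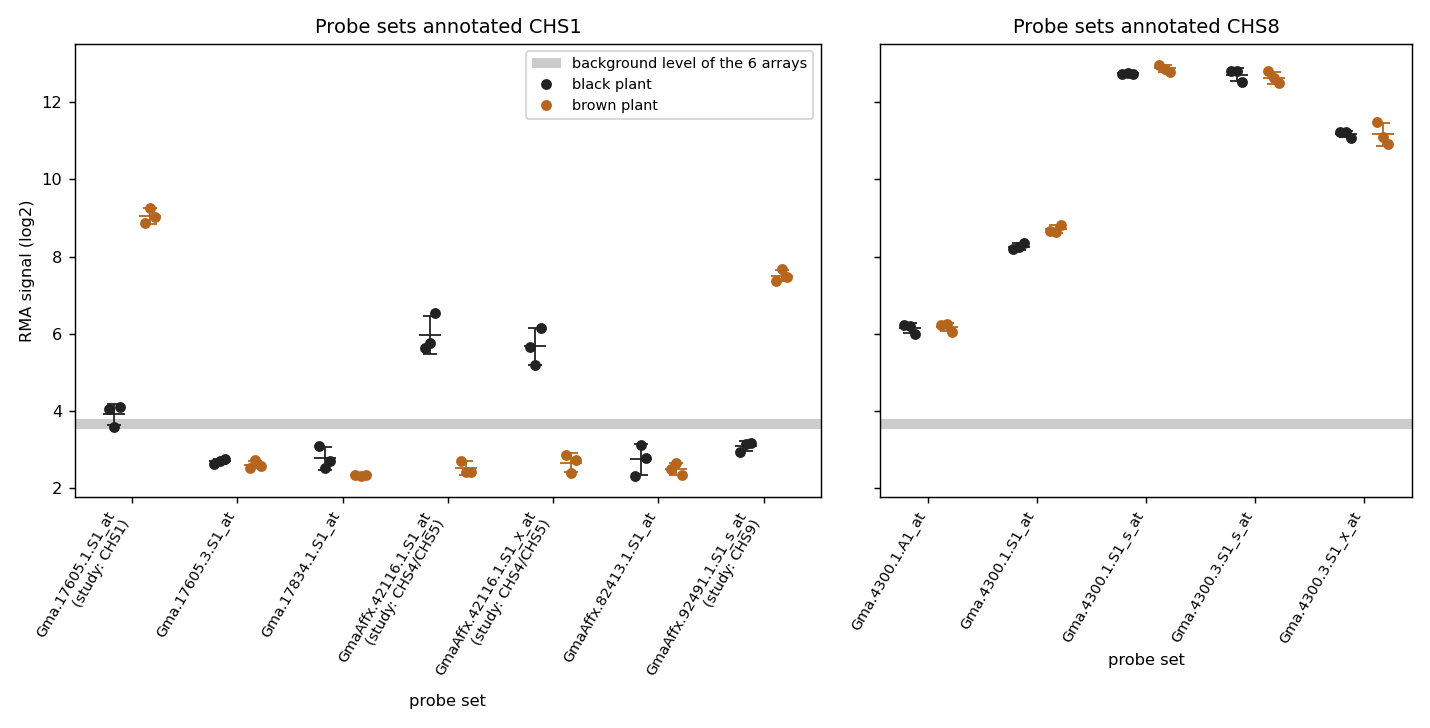
RMA signal (log2, vertical axis) of each probe set annotated CHS1 (left) or CHS8 (right) in 3 black and 3 brown plants, with points for plants, a bar for the mean ± SD of 3 plants and a grey band for the background level of the 6 arrays, 3.54 to 3.78. The probe sets that the study calls CHS1 and CHS9 stood above the band in brown plants and close to or below it in black plants, the CHS4/CHS5 pair showed the opposite, and the 5 CHS8 probe sets lay above it in both.

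The CHS1 probe set Gma.17605.1.S1_at was downregulated in the black seed coat. In the black plants its signal was 4.05, 3.58 and 4.09, and in the brown plants it was 8.86, 9.27 and 9.04. The genotypes were widely apart, and the black signals were at the edge of detection, since 2 of the 3 black plants lay above their background level and all 3 brown plants did. The mean was 3.91 ± 0.28 in black and 9.06 ± 0.21 in brown (SD, n = 3 each), a difference of -5.15 ± 0.17 (SE, 95% confidence interval -5.55 to -4.75), so the brown signal was 35.5-fold higher (limma, adjusted p = 7.5e-05). With the stricter 99th percentile of the pathogen probe sets as background, all black plants were below it and the brown signal was at least 24.3-fold higher.

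The CHS9 probe set GmaAffx.92491.1.S1_s_at was also downregulated. Black plants gave 2.93, 3.15 and 3.18, and brown plants gave 7.38, 7.68 and 7.46. No black plant exceeded the background level, so its transcript was not detectable there, and every brown plant exceeded it. The means were 3.09 ± 0.13 and 7.51 ± 0.15 (SD, n = 3 each), with a difference of -4.42 ± 0.12 (limma, adjusted p = 2.17e-05). Because the black group lay at background, the fold is a bound, and brown was at least 14-fold higher. In the annotated genome CHS9 is the gene next to CHS1. Its _s_at suffix means that transcripts of related genes may add to this signal.

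The CHS4/CHS5 probe set GmaAffx.42116.1.S1_at was upregulated in the black seed coat. Its signals in black plants were 5.63, 5.75 and 6.53, and in brown plants 2.71, 2.41 and 2.41. All black plants were above the background level and no brown plant was, with black plant 3 the highest. The mean of 5.97 ± 0.49 in black against 2.51 ± 0.18 in brown (SD, n = 3 each) gave a difference of 3.46 ± 0.24 (limma, adjusted p = 0.00361), and black was at least 5.18-fold higher.

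Its companion GmaAffx.42116.1.S1_x_at, which carries the same target number, is not a separate gene. Black plants gave 5.66, 5.19 and 6.16, and brown plants gave 2.86, 2.4 and 2.72. Black plant 3 was again the highest, and the groups were again apart on both sides of the background level. The difference was 3.01 ± 0.25 (limma, adjusted p = 0.0096), with black at least 4.21-fold higher. This call was lost without black plant 1 (3.02, adjusted p = 0.0687), brown plant 1 (3.11, adjusted p = 0.0598), brown plant 2 (2.88, adjusted p = 0.0613) or brown plant 3 (3.04, adjusted p = 0.0758). The other 3 calls held without any 1 of the 6 plants.

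**Figure D2:**
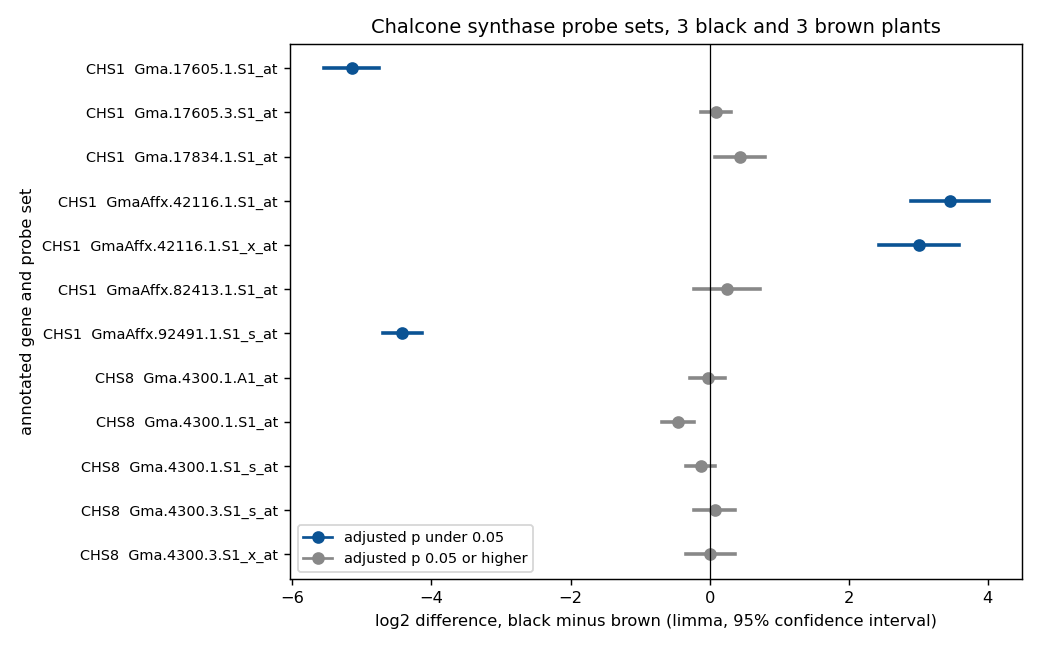
Log2 difference, black minus brown, of each of the 12 chalcone synthase probe sets (horizontal axis) with its 95% confidence interval from limma, and in blue those with an adjusted p under 0.05. Differences ran from -5.15 to 3.46 among the probe sets annotated CHS1 and from -0.45 to 0.08 among those annotated CHS8; for the CHS9 and CHS4/CHS5 probe sets 1 genotype was below background, so their folds are bounds.

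The 3 remaining probe sets annotated CHS1 were below the background level in every plant, so no change in their transcripts could have been seen at this signal. Gma.17605.3.S1_at ranged from 2.53 to 2.75, Gma.17834.1.S1_at from 2.31 to 3.1, and GmaAffx.82413.1.S1_at from 2.32 to 3.12. Their adjusted p lay between 0.549 and 0.827. The plants of the genotypes did not overlap in Gma.17834.1.S1_at, with 3.1, 2.51 and 2.71 in black and 2.34, 2.31 and 2.35 in brown, but both groups lay at background and no fold is given. A single symbol therefore covered 3 probe sets without a detectable signal, 2 that fell to near or below detection in the black seed coat, and 2 that rose from below it.

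The 5 probe sets annotated CHS8 were above the background level in all 6 plants. Gma.4300.1.S1_s_at gave 12.73, 12.77 and 12.74 in black and 12.98, 12.86 and 12.8 in brown plants. The difference of -0.13 (95% confidence interval -0.34 to 0.08) did not pass (limma, adjusted p = 0.724), although the plants did not overlap. For Gma.4300.3.S1_s_at the signals were 12.81, 12.82 and 12.54 in black and 12.82, 12.62 and 12.5 in brown, which overlap. Its difference was 0.08, with an interval from -0.22 to 0.37 (limma, adjusted p = 0.897).

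Gma.4300.3.S1_x_at had 11.23, 11.24 and 11.08 in black and 11.49, 11.09 and 10.93 in brown, with the widest spread of the CHS8 probe sets (SD 0.29 in brown). Its difference was 0.01 and the interval ran from -0.34 to 0.37 (limma, adjusted p = 0.986). Gma.4300.1.A1_at gave 6.24, 6.2 and 6 in black and 6.22, 6.26 and 6.05 in brown, almost the same range, with a difference of -0.03 (interval -0.28 to 0.22, limma, adjusted p = 0.962). The 95% intervals of these 4 CHS8 probe sets lay between 0.788-fold and 1.29-fold of the brown signal.

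Gma.4300.1.S1_at stood somewhat apart from the other CHS8 probe sets. It gave 8.19, 8.24 and 8.36 in black and 8.67, 8.65 and 8.83 in brown plants, so that every brown plant was higher. The difference of -0.45 ± 0.1 (95% confidence interval -0.68 to -0.23) corresponds to a black signal of 0.73 times the brown one, and it did not pass after adjustment (limma, unadjusted p = 0.00209, adjusted p = 0.31). An unadjusted p under 0.05 was found in 8.32% of all soybean probe sets.

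The plants numbered 3 deviated in the same direction in both genotypes in some CHS8 probe sets. In Gma.4300.1.A1_at, Gma.4300.3.S1_s_at and Gma.4300.3.S1_x_at, plant 3 was the lowest of its group in both genotypes, at 0.1 to 0.18 below the black mean and 0.12 to 0.24 below the brown mean. In Gma.4300.1.S1_at, plant 3 was the highest of both groups, at 0.09 above the black mean and 0.11 above the brown mean. Probe sets annotated to the same gene thus did not order the plants alike. Within genotypes the median SD was 0.25 for the CHS1 probe sets, 0.12 for the CHS8 probe sets and 0.15 for all soybean probe sets.

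The total chalcone synthase signal, the sum of the linear signals of the 12 probe sets, differed little between the genotypes. Soybean probe sets without a symbol could not enter this sum, so it is not shown to cover the whole family. On the log2 scale it was 14.04, 14.06 and 13.93 in black plants and 14.24, 14.07 and 13.98 in brown plants, which overlap. The difference was -0.08 ± 0.09 (SE, n = 3 each, exact permutation test, two-sided, p = 0.4). With 3 plants against 3, this test cannot give a p below 0.1. The CHS8 probe sets alone gave a difference of -0.03 ± 0.09 (exact permutation test, p = 0.8), and they carried 95.7% of the summed signal in brown and 99% in black plants, a share of signal and not of transcripts.

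The sum over the 7 CHS1 probe sets was 7.17, 7.05 and 7.71 in black plants and 9.37, 9.73 and 9.52 in brown plants, on the log2 scale. All black plants were lower, with a mean difference of -2.23 ± 0.23, and the exact permutation test gave the smallest p it can, 0.1. This sum adds probe sets that rose to others that fell, so it describes the annotation and not a transcript. The share of the 12-probe-set sum carried by CHS1 probe sets was 0.991% ± 0.313 in black and 4.3% ± 0.785 in brown plants (SD, n = 3 each). The total without the probe sets ending in _s_at or _x_at was lower in black by 1.14 on the log2 scale, and that sum leaves out 3 of the 5 CHS8 probe sets.

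Isogenes were compared within each plant by taking the signal of each CHS1 probe set relative to the mean log2 signal of the CHS8 probe sets, which cancels any difference between arrays that affects both. Relative to CHS8, Gma.17605.1.S1_at was at -6.18, -6.67 and -6.05 in black plants and at -1.58, -1.02 and -1.18 in brown plants. The change of this contrast between genotypes was -5.05 ± 0.25 (SE), close to the change of the probe set by itself. For GmaAffx.92491.1.S1_s_at it was -4.31 ± 0.16. Because this probe set lay below background in black plants and the CHS4/CHS5 pair did in brown plants, the contrasts of these 3 are differences of measured values, and the folds behind them are known only as the bounds given above.

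For the CHS4/CHS5 pair the contrast with CHS8 was higher in black plants by 3.56 ± 0.32 in GmaAffx.42116.1.S1_at and by 3.12 ± 0.34 in GmaAffx.42116.1.S1_x_at, the opposite direction. In each of these 4 contrasts the plants of the genotypes did not overlap and the exact permutation p was 0.1, the smallest possible. After adjustment over the 19 contrasts with CHS8 or with the total, the smallest p was 0.158, so none of the 19 passed. Relative to the total of the 12 probe sets the same 4 changed by -5.07, -4.33, 3.54 and 3.1. The CHS8 probe set Gma.4300.1.S1_at changed by -0.37 ± 0.15 relative to the total, and Gma.4300.3.S1_s_at by 0.16 ± 0.05.

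**Figure D3:**
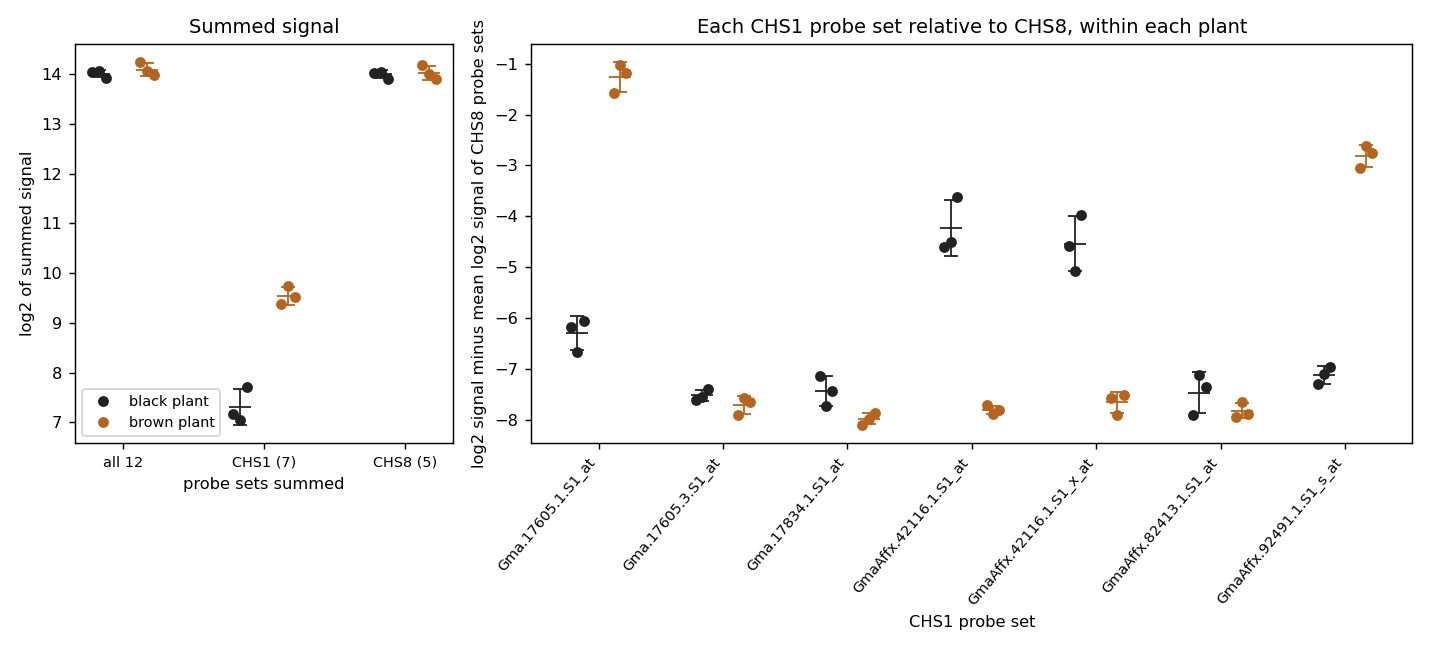
Left, log2 of the summed signal of all 12 chalcone synthase probe sets, the 7 annotated CHS1 and the 5 annotated CHS8 in each plant; right, log2 signal of each CHS1 probe set minus the mean log2 signal of the CHS8 probe sets of the same plant, with points for plants and bars for the mean ± SD of 3 plants. The sums over all 12 ran from 13.93 to 14.06 in black and from 13.98 to 14.24 in brown plants, while the contrasts of Gma.17605.1.S1_at and GmaAffx.92491.1.S1_s_at were lower and those of the CHS4/CHS5 pair were higher in every black plant.

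Genes next to the family members were examined for a change over the region. Of the genes from 10 before to 25 after CHS1 on chromosome 8, 6 other than CHS1 had a probe set of their own symbol, and none of these passed (adjusted p 0.601 to 0.999). J1, which lies 3 genes after CHS1, gave 10.97, 11.03 and 11.05 in black and 10.94, 11.2 and 10.91 in brown plants. SHMT, a serine hydroxymethyltransferase gene lying 7 genes before it, differed by 0.18 (limma, adjusted p = 0.64) with every black plant higher. Over the same span around CHS8, 4 genes had a probe set, among them the coumarate ligase gene 4CL3, and none passed (adjusted p 0.722 to 0.976).

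Other steps of the pathway were read from 54 probe sets with a single symbol. Of these, 3 were upregulated in the black seed coat, 1 was downregulated and 50 did not pass. In 19 of the 54 the genotypes were clear of each other, with black higher in 15 and lower in 4. Over all soybean probe sets the same held for 14.0%, 5.74% with black higher and 8.30% with black lower. Of the 54, 15 lay below background in every plant, among them some with black higher, of CHI1B1, FLS1 and IFR. Several others are repeats of a single gene, as in HIDH. The median difference was 0.11, beside -0.02 for all soybean probe sets. These values describe the list and do not show a rise along the pathway. The flavonoid 3'-hydroxylase and flavonoid 3',5'-hydroxylase, which set the number of hydroxyl groups on the pigment, were not analysed here, because no symbol in the annotation used matched them.

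Before the chalcone synthase step, 4CL4, a ligase that makes its coumaroyl-CoA starter, gave 6.92, 7.26 and 6.85 in black and 5.93, 5.68 and 5.88 in brown plants. It was 2.27-fold higher in black (1.18 ± 0.13, limma, adjusted p = 0.046), a call that was lost without any 1 of the 6 plants (adjusted p 0.0696 to 0.213). The study calls this probe set 4CL2. The other 6 of the 7 coumarate ligase probe sets did not pass, with differences from -0.33 to 0.25. No probe set of phenylalanine ammonia-lyase (3 probe sets) or cinnamate 4-hydroxylase (2) passed, with differences from -0.16 to 0.19. None of the 12 probe sets of chalcone isomerase, which closes the ring of the chalcone, passed either. The nearest was CHI2-A, at 12.33, 12.26 and 12.27 in black and 11.69, 11.52 and 11.72 in brown plants (0.64 ± 0.09, limma, adjusted p = 0.0941).

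Among the later enzymes, DFR2, a dihydroflavonol reductase, had the largest difference of the list. Its signals were 9, 8.72 and 8.85 in black and 3.03, 2.94 and 2.69 in brown plants, where it was not detectable. Black was at least 38.2-fold higher (5.96 ± 0.13, limma, adjusted p = 1.18e-05). DFR1, another dihydroflavonol reductase, was bright in both genotypes, at 12.64, 12.67 and 12.61 in black and 12.64, 12.44 and 12.56 in brown plants. Its difference of 0.09 did not pass (limma, adjusted p = 0.81). ANS2, an anthocyanidin synthase, gave 13.32, 13.23 and 13.29 in black and 10.51, 10.88 and 10.18 in brown plants, both well detected. It was 6.77-fold higher in black (2.76 ± 0.17, limma, adjusted p = 0.00261). LAR1, a leucoanthocyanidin reductase of the proanthocyanidin branch, was lower in every black plant, at 7.86, 7.9 and 7.92 against 9.07, 9.05 and 9.08 in brown. The brown signal was 2.26-fold higher (-1.18 ± 0.08, limma, adjusted p = 0.00361), and the call was lost without brown plant 1 (-1.18, adjusted p = 0.0519) or brown plant 3 (-1.17, adjusted p = 0.05).

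In the isoflavone branch, none of the 5 chalcone reductase, 2 isoflavone synthase, 4 HIDH or 9 isoflavone reductase probe sets passed. IFS1, which moves the aryl ring to make the isoflavone skeleton, gave 6.85, 4.44 and 3.39 in black and 3.12, 3.14 and 3.17 in brown plants. The black plants did not overlap the brown ones but were spread over a wide range, and black plant 1 was far above the others (limma, adjusted p = 0.61). HIDH, the dehydratase that completes the isoflavone, was higher in every black plant in 3 of its 4 probe sets, with differences of 0.4 to 0.56 that did not pass (adjusted p 0.342 to 0.552). IFR1, an isoflavone reductase, went the other way and was lower in every black plant in 3 of its 4 probe sets. Those differences of -0.62, -0.58 and -0.19 did not pass either (limma, adjusted p 0.426 to 0.639), and the remaining probe set (-0.22) overlapped.

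**Figure D4:**
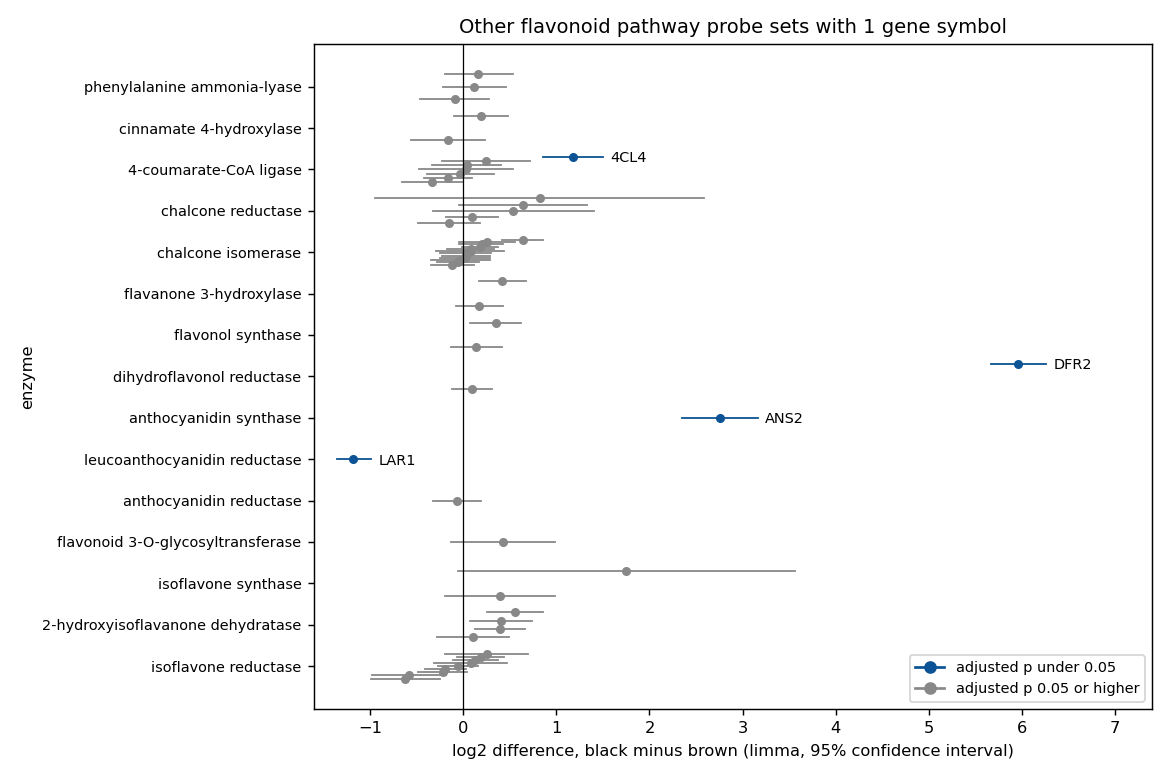
Log2 difference, black minus brown (horizontal axis), of the 54 other flavonoid pathway probe sets with a single gene symbol, by enzyme, with 95% confidence intervals from limma and in blue the 4 with an adjusted p under 0.05. DFR2 (5.96), ANS2 (2.76) and 4CL4 (1.18) were higher in black and LAR1 (-1.18) was lower.

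For each chalcone synthase probe set that passed, and for the CHS8 probe set Gma.4300.1.S1_s_at, the most similar profiles were sought among the 8665 other soybean probe sets with a single symbol, by the root mean square distance between profiles centred on their own mean over the 6 plants. The nearest to both CHS4/CHS5 probe sets was ANS2, at distances of 0.504 and 0.43 log2 units, where the probe sets themselves vary by 1.75 and 1.54 about their means. The next were LOC100527223 (0.767 and 0.589) and LOC100526897 (0.857 and 0.653). LOC100527223 gave 8.99, 9.03 and 9.47 in black and 6.95, 7.36 and 7.17 in brown plants (2.01 ± 0.16, limma, adjusted p = 0.0096), and like the pair it was highest in black plant 3. Its call was lost without brown plant 1 (1.9, adjusted p = 0.0602) or brown plant 3 (2.01, adjusted p = 0.0771).

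The nearest to the CHS1 and CHS9 probe sets was LOC547605, at 1.1 and 0.742, which the study describes as a small subunit of ribulose bisphosphate carboxylase. Its signals were 2.59, 3.12 and 2.17 in black plants, all below background, and 6.29, 5.33 and 6.16 in brown plants (-3.3 ± 0.32, limma, adjusted p = 0.0195). This call was lost without black plant 1 (-3.28, adjusted p = 0.128), black plant 3 (-3.07, adjusted p = 0.0596), brown plant 1 (-3.12, adjusted p = 0.112) or brown plant 3 (-3.18, adjusted p = 0.128). The next were LOC100785654 (1.81 and 1.47) and LOC100782644 (1.89 and 1.55), whose own differences did not pass (limma, adjusted p = 0.0655 and 0.493). These distances are larger than those from ANS2 to the CHS4/CHS5 pair. However, the CHS1 and CHS9 probe sets also vary more about their own means than that pair, by 2.58 and 2.21 log2 units. For Gma.4300.1.S1_s_at the nearest were LOC100305376, LOC100789516 and LOC100808514, at 0.0279 to 0.0298 where it varies by 0.0854. LOC100305376 was below background in all 6 plants, from 2.29 to 2.57, so that likeness is to values at the background level. Such distances over 6 plants rest on the difference between genotypes and describe likeness in these arrays only.

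**Figure D5:**
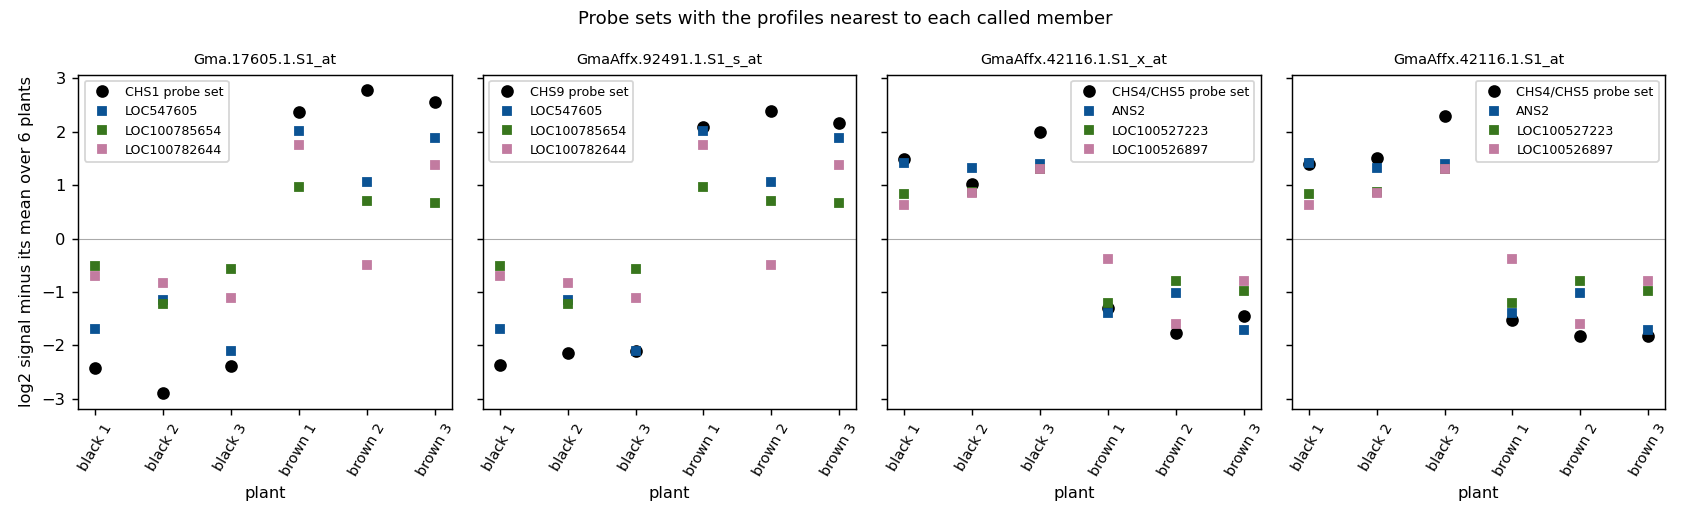
Log2 signal minus its mean over 6 plants (vertical axis) in each plant (horizontal axis) for the 4 chalcone synthase probe sets that passed (black circles) and the 3 single-symbol probe sets nearest to each (coloured squares). ANS2 lay nearest to both CHS4/CHS5 probe sets, and LOC547605 nearest to the CHS1 and CHS9 probe sets.

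The arrays resembled each other (correlations 0.983 to 0.996), and the seed coat markers Ep, a peroxidase, and SCB1, a seed coat BURP-domain protein, were bright in all plants without a difference that passed. Of 12 probe sets for embryo markers, which cover 8 of 11 listed symbols, 1 separated the genotypes, where 14.0% of all soybean probe sets did, and none passed. Their summed signal on the log2 scale was 11.59 to 13.19 in black and 11.39 to 11.77 in brown plants. Black plant 1 was the highest, and black plant 2, at 11.95, was also above every brown plant. The largest differences were in PM12 (2.1 and 1.87), GY7 (1.93), LEA5 (1.41) and 1 probe set of CG-1 (1.4). Only 1 probe set, of GY2, had a negative difference (-0.1). The source of these signals was not tested. None of the markers LEA5, PM12, GY1, GY2 or GY5 was below background in any plant, while GY3, GY7 and CG-1 were in at least 1. Without black plant 1 the differences were -5.22 for Gma.17605.1.S1_at, -4.34 for GmaAffx.92491.1.S1_s_at and 3.63 for GmaAffx.42116.1.S1_at, each still past the threshold. GmaAffx.42116.1.S1_x_at, at 3.02, no longer passed (limma, adjusted p = 0.0687). Without black plant 2 the differences in the same order were -4.99, -4.45, 3.57 and 3.25, each past the threshold. No fit left out both plants.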

How the data were processed

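The authors hybridized biotin-labelled RNA from each plant (100 ng of total RNA, transcribed in vitro for 16 h) to 1 array and deposited log2 signals normalized by RMA, of which the version is not given in the sources used here. The other deposited tables, which hold the authors' own group means, variances, fold changes, scores and p-values, were not used. The signals were used as deposited, and no array image was processed.

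The genotypes were compared by the moderated test of limma 3.58.1 (R 4.3.3, functions lmFit and eBayes, two-sided, prior degrees of freedom 3.17) over 37641 soybean probe sets, leaving out 23394 pathogen and 135 control probe sets. Of the soybean probe sets, 8677 had 1 symbol, 370 several and 28594 none. Where all plants of the dimmer group were below the 95th percentile of the pathogen probe sets, a fold was computed against the higher of that level and the signal itself, array by array, and is written as at least so many fold. Sums and contrasts within plants were compared by exact permutation tests over the 20 assignments of 6 plants. Named probe sets are the 12 members and the pathway genes with an adjusted p under 0.05. The 3 nearest profiles of each called member and of the CHS8 member with the highest mean signal are named too. CHI2-A, DFR1, IFS1, HIDH, IFR1 and the neighbouring genes were named after their values were seen. The members and gene lists were chosen with earlier results of these data known. Labels call the plants biological replicates, and the number of arrays limits the precision.

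Alternatives were the SAM statistic used in the methods of the study, limma with trend and robust settings, median centring, cyclic loess, all probe sets, a filter for dim probe sets, the replicate number as a block, and each plant left out. The procedure was tested on simulated data. Plots were made in matplotlib 3.10.9 under Python 3.11.15.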

Additional observations from a re-analysis of the deposited data

How the results depend on the processing

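The CHS1, CHS9 and CHS4/CHS5 differences kept their direction under every alternative run. With SAM at the thresholds of the study's methods, 2 members were upregulated and 2 downregulated, beside 79 and 53 soybean probe sets. SAM with Benjamini-Hochberg adjustment called 0 in each count, of members, soybean probe sets and pathway probe sets (the 12 members held 6, and all soybean probe sets 3131, with a limma p under 0.05). It could not have called any, since its lowest possible adjusted p with 3 plants against 3 is 0.1. Soybean probe sets upregulated numbered 40 with trend and robust settings and 39 with median centring. With each plant left out in turn, 1 to 2 members rose and 2 fell in all 6 fits, 9 to 20 soybean probe sets rose and 4 to 13 fell, and 2 pathway probe sets rose and 0 to 1 fell. The labels do not say whether the numbers of the plants mark pairs. Deviations of same-numbered plants correlated at 0.09, 0.29 and 0.5. Black plants 2 and 3 correlated best with the brown plant of the same number, and black plant 1 with brown plant 2. Whether same-numbered plants shared a harvest was not tested. Fitted with that number as a replicate block, 2 members rose and 2 fell, 14 soybean probe sets rose and 9 fell, and 4CL4 (adjusted p = 0.204) and LOC547605 (adjusted p = 0.139) were the calls of named probe sets that were lost.

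Without the probe sets ending in _s_at or _x_at, 1 member rose and 1 fell, by construction. The total chalcone synthase signal differed by -1.14 without them and by -0.24 as the mean of log2 signals, and from -0.14 to -0.01 with a plant left out. As no other probe set carries a chalcone synthase symbol, the total over CHS1 and CHS8 alone is the same total. Contrasts with CHS8 with a plant left out ranged from -5.2 to -4.86 (Gma.17605.1.S1_at), -4.44 to -4.22 (GmaAffx.92491.1.S1_s_at), 3.25 to 3.75 (GmaAffx.42116.1.S1_at) and 2.84 to 3.38 (GmaAffx.42116.1.S1_x_at). With a 99th percentile as background the bounds were 8.3 for GmaAffx.92491.1.S1_s_at, 3.1 for GmaAffx.42116.1.S1_at and 2.52 for GmaAffx.42116.1.S1_x_at. Of members that did not pass, Gma.4300.1.A1_at changed sign with median centring (0.02), cyclic loess (0.02) and with a plant left out (-0.09 to 0.05), and Gma.4300.3.S1_x_at with a plant left out (-0.1 to 0.18). The cause of these changes was not tested.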
